A study of Homo sapiens with 24 samples.

Results

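RNA was sequenced from BPH-1 cells, a human prostate epithelial line immortalized with SV40 large T antigen, after overexpression of wild-type C-Raf and after growth of these cells in mice. C-Raf is a kinase that passes the signal of Ras to MEK and ERK. The comparison set 3 metastasis-derived lines of BPH-1 C-Raf cells against 3 libraries of the C-Raf parental cells they came from, which is 6 of the 24 libraries in the series. The metastasis-derived lines are the ones with deep libraries, of 20576436 to 28142374 protein-coding counts. They are named here by their numbers, R069 and R072, both from bone, and R075, titled as thymus but given bone as its site in the treatment label, so it is used without a site. The series holds 6 BPH-1 metastasis-derived libraries. The other 3, bone R071, bone R074 and the library titled bone R075, were left out of the comparison because they held 465030, 132487 and 111188 protein-coding counts.

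Both groups overexpressed C-Raf, per the labels. The titles of the parental libraries also name a Gaussia luciferase reporter, and those of the metastasis-derived libraries name none. The parental cells had been kept in culture. For the metastasis-derived lines, cells were injected into the heart of immune-deficient NSG mice, and lines were then raised in about a week of culture from tumours large enough to be cut out. The labels name 1 cell line, BPH-1, for all of these libraries, and nothing states that the 3 parental libraries came from separate cultures. Their p-values therefore measure the spread between these libraries, which in the parental group may be technical. The question addressed is which genes differ, and by how much, between cells that had formed metastases and the cells that were injected.

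Prostate basal epithelium and the stratified epithelia of skin and mouth share a basal layer with the keratins KRT5 and KRT14. In stratified epithelia, cells that leave this layer switch to other keratins, make desmosomes of another composition, and cross-link proteins such as involucrin and the small proline-rich proteins into a cornified envelope by means of transglutaminases. Ras and ERK signalling and the AP-1 family of transcription factors are known to act on many genes of this process.

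The groups differed in more than stage, and these values stand beside every result that follows. Protein-coding genes held 97.4% to 98.2% of the counts in the 3 parental libraries, but 70.0% in R069, 38.9% in R072 and 83.8% in R075. RN7SL1, a small non-coding RNA of the signal recognition particle that carries no regular poly(A) tail, held 13.1%, 30.3% and 4.6% of the counts in R069, R072 and R075 and at most 0.00932% in a parental library. Mitochondrially encoded genes took 3.28% to 3.44% of the protein-coding counts in the parental libraries and 16.2%, 39.5% and 11.9% in the metastasis-derived ones. Stage, table of deposit and this difference in RNA composition cannot be told apart in this design, so changes of large size are favoured. Members of the gene lists that are named beyond the widest-gap genes and the most changed or most abundant members were picked after their values were seen. Total counts ran from 25997814 to 29150116 in the parental libraries and from 33070705 to 52851374 in the metastasis-derived ones.

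The spread was also unequal. The biological coefficient of variation was 2.15% among the parental libraries and 49.6% among the metastasis-derived ones, and 35.3% over all 6. The test fitted 1 spread per gene for both groups, which counts the parental libraries as full replicates. Calls lost without 1 parental library were common over all genes, as given below, and are not a trait of single genes. Parental pairs still differed by more than sampling noise, with a chi-square per degree of freedom of 1.98 to 2.11 over genes with at least 10 counts in both libraries. The pairs of metastasis-derived libraries gave 211 to 854, so the lines differed from each other far more than the parental libraries did. Long genes were favoured as well, in the median. The median log2 fold change was -0.29 among genes with exon lengths of 207 to 3261 bases and 0.50 among those of 7539 to 118976 bases.

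Of 13403 protein-coding genes tested, 5004 passed an adjusted p of 0.05. The metastasis-derived lines were higher for 2769 of them and lower for 2235. These are 20.7% and 16.7% of the genes tested, and the counts of each gene list below stand beside these shares. A change is called large here when it also reached 4-fold, a log2 fold change of 2. There were 1163 large rises, 8.68% of the genes tested, and 322 large falls, 2.4%. All 322 falls and 1156 of the 1163 rises had no overlap between the 3 parental and the 3 metastasis-derived libraries. That follows largely from the selection, because the parental libraries hardly varied and these genes were chosen for a passing change of at least 4-fold. The share without overlap over all genes tested was not counted. In 614 of the rises every parental library was below 1 CPM, a count scaled to library size and edgeR's TMM factors over the tested genes, and in 104 of the falls every metastasis-derived library was below 1 CPM. The counts of calls depended on the library left out. Without parental library 1, 2 or 3, 1843 of 13840, 1899 of 13833 and 1934 of 13856 genes passed, with 692 to 711 large rises and 237 to 244 large falls. Of the genes that passed, 56.5%, 56.5% and 56.1% were higher. Without R072, 8268 of 13677 genes passed, 51.5% of them higher. Without R069 it was 3912 of 13509 and 57.7%, and without R075 6843 of 13683 and 54.5%. The whole fit moved with the library left out, so each list's counts without 1 library stand beside these. Scaling to total counts without TMM factors moved the median of all genes from 0.07 to -0.31 on the log2 scale, and the share of calls that were higher from 55.3% to 39.7%.

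The widest gaps between the nearest libraries of both groups, among large rises with a mean of at least 10 CPM, belonged mostly to genes of keratinocyte differentiation. KRTDAP, a secreted protein of differentiating keratinocytes (chromosome 19, 35487324 to 35495558, GRCh38), was at 0.061, 0.0612 and 0.0338 CPM in the parental libraries and at 48.1, 273 and 39.5 CPM in R069, R072 and R075. S100A8, a calcium-binding alarmin subunit (chromosome 1, 153390032 to 153391188), was at 0.427, 1.01 and 0.54 CPM against 409, 2304 and 243 CPM. SBSN, suprabasin (chromosome 19, 35523367 to 35528351), stood at 0.153, 0.0612 and 0.135 CPM against 218, 439.8 and 48.9 CPM. In all 3 genes R072 was highest, R075 lowest of the lines, and no line came near the parental level. Their log2 fold changes were 11.04 ± 1.25 (SE, adjusted p = 0.00283), 10.53 ± 1.28 (adjusted p = 0.00313) and 10.93 ± 1.13 (adjusted p = 0.00244) in the quasi-likelihood F test of edgeR.

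Several of these genes had almost no reads in the parental cells. KRT1, the type II keratin of suprabasal epidermis, had 2 counts over the 3 parental libraries and 11344 over the 3 lines, a ratio of pooled CPM of 7681 with a 95% counting interval of 2126 to 63423. The desmosomal cadherin DSG1 had 1 count against 5358, a ratio of 7256 (1302 to 286581). These intervals, and the bounds that follow, cover counting error only. CERS3, the ceramide synthase of very long acyl chains, and LRRTM2, a leucine-rich synaptic adhesion protein, had 0 parental counts against 1772 and 1092 in the lines. They were therefore at least 800-fold and 493-fold higher, taking 3 counts over the parental group as the floor. LRRTM2 was the exception in order among the genes named so far, with 13.9, 6.71 and 21.1 CPM in R069, R072 and R075 and its highest value in R075.

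The other genes with the widest gaps were TMPRSS11D, a serine protease of airway and squamous epithelium, KRT6B and KRT6C, keratins of activated epidermis, the transcription factor MAF and the transglutaminase TGM3. KRT6B was at 1.71, 1.04 and 1.11 CPM in the parental libraries and at 355, 498 and 173 CPM in R069, R072 and R075. MAF was at 0.061, 0.0306 and 0.101 CPM against 14.4, 69.7 and 26.9 CPM. TGM3 was at 0.0305, 0.0306 and 0.0675 CPM against 48.8, 1021 and 9.66 CPM, the widest spread between lines of this group. KRT6B and MAF passed whichever library was left out, and TGM3 did not pass without any 1 of the parental libraries (highest adjusted p = 0.0538). The KRT6 genes are near-identical copies, so how RSEM divided reads between them is uncertain.

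**Figure D1:**
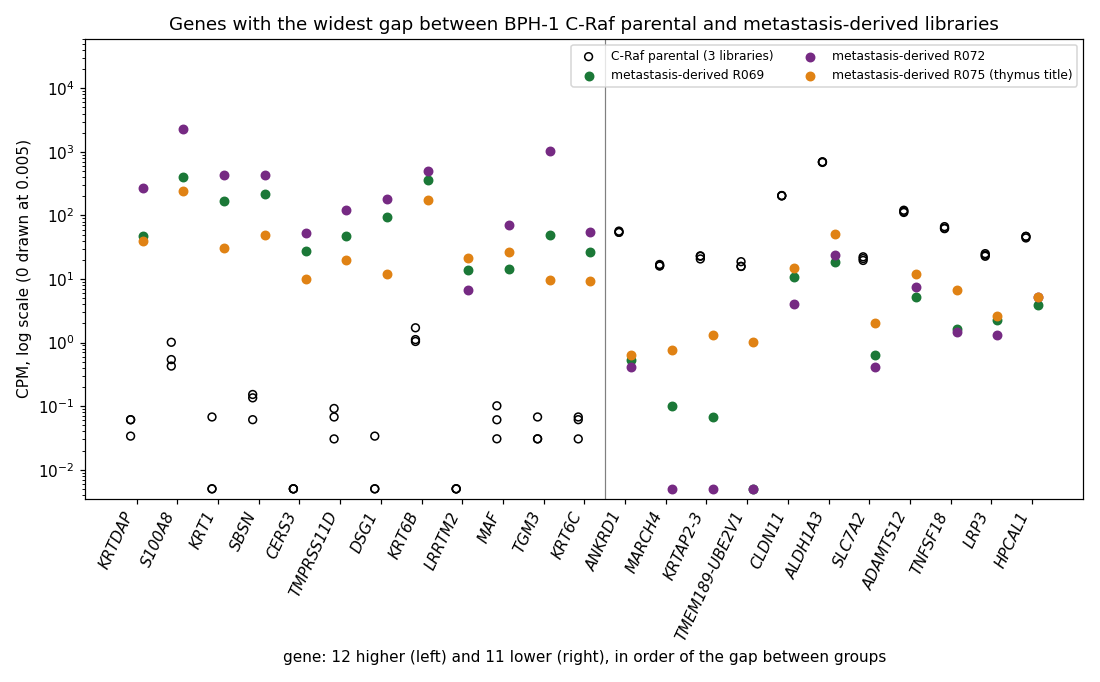
CPM on a log axis of 23 of the 24 genes with the widest gap between groups, 12 that rose (left) and 11 that fell (right), in each of the 3 C-Raf parental libraries (open circles) and in R069, R072 and R075 (filled circles), with 0 drawn at 0.005. The parental circles of KRT1 and DSG1 lie at or near 0, and for ANKRD1 the 3 lines lie between 0.409 and 0.644 CPM under parental values of 54.3 to 56.7 CPM.

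Genes of the cornified envelope rose as a group. Of 31 members, all tested, 26 rose and 0 fell, against 20.7% of all genes that rose, and 25 of the 26 were large changes. The list's median log2 fold change was 5.43 beside 0.07 for all genes. Leaving out 1 library gave 21 to 30 rises. The summed level was 650 to 670 CPM in the parental libraries, 5716 CPM in R069, 21726 CPM in R072 and 3394 CPM in R075. R072 was the highest line for 30 of the 31 members and R075 the lowest for 27. R072 also had the highest, and R075 the lowest, RN7SL1 and mitochondrial shares of the lines, as given above. The part of composition in this order was not tested.

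Involucrin, IVL, a main scaffold protein of the envelope, was at 5.03, 5.11 and 5.37 CPM in the parental libraries and at 194, 917 and 40.0 CPM in R069, R072 and R075. SPRR1B, a small proline-rich protein that is cross-linked into the envelope, was at 22.0, 24 and 25.1 CPM against 459, 1060.1 and 293 CPM. PI3, elafin, a protease inhibitor of inflamed epidermis, was at 6.74, 8.51 and 7.83 CPM against 611, 1326 and 385 CPM. None of these groups overlapped. SPRR1B rose by a log2 fold change of 4.67 (adjusted p = 0.00285) and PI3 by 6.65 (adjusted p = 0.00202) whichever library was left out, and IVL, at 6.21 (adjusted p = 0.0103), did not pass without any 1 of the parental libraries (highest adjusted p = 0.0543). The desmosomal genes DSC2 and DSG3 moved with them, DSG3 from 38.3, 39.0 and 38.5 CPM to 531, 666 and 567 CPM, nearly the same level in the 3 lines. The members that did not pass were EVPL, PPL, FLG, KLK6 and KLK10. FLG, filaggrin, was at 59.8 to 69.6 CPM in the parental libraries and at 222, 985 and 65.3 CPM in the lines, so that R075 lay within the parental range.

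The risen members are clustered in the genome. The 12 tested members on chromosome 1 lie between positions 152302175 and 153460701 (GRCh38), the epidermal differentiation complex, and 11 of them rose. Of 15 other protein-coding genes tested in the same stretch of 1.16 megabases, 14 were large rises, beside 8.68% of all genes tested. The 3 desmosomal members on chromosome 18 lie between 31058840 and 31478702, and both other genes tested there were large rises too. These counts hold only genes that passed the filter on low counts. A gene almost silent in the parental cells could pass it through its level in the lines, and would then tend to be a large rise. Genes of either stretch that the filter removed were not counted. Whether large rises are enriched among all coding genes of these stretches was therefore not tested.

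The promoter sequences of 4 risen genes are shown because AP-1 sites are a known feature of this gene group, and they were picked because they hold the AP-1 motif. The motif searched was TGANTCA, which reads the same on both strands, in the 250 bases before the RefSeq start. It was present in 7 of the 21 members of the list with a promoter entry (33.3%), in 4.38% of the promoters of 10304 tested genes and in 6.57% of all 35116 promoters. The 200 bases before each start are printed 5′ to 3′ on the gene's strand with the motif in capitals, from RefSeq on GRCh38.p14. A match is a description of the letters and not evidence of a bound factor. The stretch printed for KRTDAP, which is not a member of the list, is chr19:35490465-35490664 on the minus strand. It lies within the gene span given above, as RefSeq and GENCODE place the start differently. The stretch for SBSN is chr19:35528312-35528511 on the minus strand. Those for SPRR1B and IVL are chr1:153031003-153031202 and chr1:152908346-152908545, both on the plus strand.
KRTDAP: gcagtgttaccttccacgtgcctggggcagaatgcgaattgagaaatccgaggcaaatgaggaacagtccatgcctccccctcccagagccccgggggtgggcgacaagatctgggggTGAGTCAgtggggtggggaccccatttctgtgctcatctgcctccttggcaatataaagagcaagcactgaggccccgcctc
SBSN: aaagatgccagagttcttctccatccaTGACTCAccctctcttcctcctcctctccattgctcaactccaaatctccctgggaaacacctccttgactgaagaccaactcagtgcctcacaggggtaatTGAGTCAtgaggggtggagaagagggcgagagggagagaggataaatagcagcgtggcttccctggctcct
SPRR1B: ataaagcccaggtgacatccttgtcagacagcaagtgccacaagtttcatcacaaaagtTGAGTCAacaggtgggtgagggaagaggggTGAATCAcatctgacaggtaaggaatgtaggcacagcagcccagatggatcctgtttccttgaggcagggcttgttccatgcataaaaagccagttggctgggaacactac
IVL: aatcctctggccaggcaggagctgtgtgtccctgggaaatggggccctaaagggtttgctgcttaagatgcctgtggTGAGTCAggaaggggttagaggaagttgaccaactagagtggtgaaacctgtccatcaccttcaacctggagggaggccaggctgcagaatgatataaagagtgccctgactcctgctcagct

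SBSN and SPRR1B each hold the motif at 2 places in the stretch printed, KRTDAP and IVL at 1. Promoters of list members without the motif are not shown, and whether the motif goes with the level of a gene was not tested.

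Keratins changed both ways. Of 22 listed keratin genes 18 were tested. Beside 20.7% and 16.7% of all genes, 13 of them rose, all by a large change, and 2 fell, KRT7 and KRT80. KRT7 did not pass without parental library 1 or 2 (highest adjusted p = 0.0507). Their median log2 fold change was 5.29. Without parental library 1, 2 or 3 the number that rose was 8 each time, and without R069, R072 or R075 it was 12, 14 and 14. The falls ran from 1, without parental library 1 or 2, to 3, without R069. KRT4 and KRT13 are keratins of mucosal squamous epithelium. KRT4 was at 5.55, 5.97 and 6.14 CPM in the parental libraries and at 337, 1338 and 224 CPM in R069, R072 and R075, while KRT13, at 247 to 254 CPM, reached 1618 CPM in R072 but 286 and 297 CPM in the others and did not pass (adjusted p = 0.13). KRT16, a partner of the KRT6 proteins, went from 6.31 to 8.76 CPM up to 649.9, 2502 and 202 CPM.

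Basal markers of prostate epithelium rose in part. Of 10, all tested, 5 rose (KRT14, KRT15, KRT17, DST and KRT5) and 0 fell, beside 20.7% and 16.7% of all genes. The list's median was 0.70. KRT14 was at 303, 300.1 and 294 CPM in the parental libraries and at 4031, 6566 and 2932 CPM in R069, R072 and R075, a log2 fold change of 3.92 ± 0.38 (adjusted p = 0.00238). KRT17 and DST, which encodes the plakin dystonin, also passed whichever library was left out. Without parental library 1, 2 or 3, only these 3 passed; KRT15 (highest adjusted p = 0.0821) and KRT5 (0.213) did not, and KRT5 also did not pass without R069. With all 6 metastasis-derived libraries in the fit the log2 fold change of KRT5 turned to -0.06 (adjusted p = 0.97). NGFR, at 117 to 128 CPM and 59.1, 30.5 and 83 CPM, and the integrin subunit ITGB4, at 1386 to 1448 CPM and 479, 1223 and 618 CPM, lay below the parental libraries in each line and did not pass (adjusted p = 0.0532 and 0.115). There were 2 falls in the list without R072 and 1 without R075. TP63, the master regulator of basal and squamous epithelium, was at 183 to 189 CPM and at 199, 336 and 339 CPM in the lines and did not pass (adjusted p = 0.0873).

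Simple-epithelial keratins moved the other way. KRT8, a type II keratin of luminal cells, was at 919, 916 and 894 CPM in the parental libraries and at 79.7, 90.0 and 182 CPM in R069, R072 and R075, a log2 fold change of -2.95 (adjusted p = 0.00333). Its partner KRT18 was at 835, 829 and 823 CPM against 86.9, 104 and 157 CPM, a change of -2.84 (adjusted p = 0.00239). Both fell in each line, without overlap, and passed whichever library was left out. Of the 12 luminal markers listed 7 were tested, 3 fell (KRT8, KRT18 and KRT19) and 2 rose, beside 16.7% and 20.7% of all genes. The 2 that rose were TMPRSS2 and ACPP. KRT19 and TMPRSS2 did not pass without any 1 of the parental libraries (highest adjusted p = 0.0932 and 0.0603). Of the defining luminal genes, KLK3 was at 0 in all 6 libraries and KLK2 reached at most 0.0358 CPM.

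Markers of the cells that could have come along from the host site were examined, as far as reads map to human genes. Of 10 fibroblast markers, 3 were tested and COL1A1 and FAP rose, FAP not without parental library 1 (adjusted p = 0.05). COL1A1 was at 10.3, 10.5 and 10.3 CPM in the parental libraries and at 53.1, 70.3 and 46.9 CPM in the lines, while POSTN was at 0 in all 6 libraries and DCN at most 0.0358 CPM. The summed haematopoietic markers were 26.7 to 30.2 CPM in the parental libraries and 14, 12.1 and 26.7 CPM in R069, R072 and R075, a sum made up mostly of CD68, at 23.7 to 26.4 CPM against 8.46, 5.57 and 21.6 CPM, with MS4A1 and CD3D at 0 throughout. Of the 5 haematopoietic markers tested 2 rose. SPI1, a transcription factor of myeloid cells, had 1 count over the parental libraries and 64 over the lines, a ratio of pooled CPM of 86.7 (15.6 to 3423), and passed whichever library was left out. CSF1R, a growth factor receptor of macrophages, was at 0.574 to 1.19 CPM against 2.53, 3.52 and 2.11 CPM and did not pass without any 1 of the parental libraries or R069 (highest adjusted p = 0.104). The summed bone cell markers were 14.5 to 15.3 CPM against 36.1, 28.4 and 21.6 CPM, of which the osteoclast genes ACP5 and CTSK and the bone gene PHEX rose, PHEX not without any 1 of the parental libraries (highest adjusted p = 0.0781). IBSP, DMP1 and OCSTAMP were at 0 throughout. Of 7 endothelial markers, summing to 1.59 to 1.62 CPM against 10.9, 43.4 and 3.58 CPM, VWF and ERG rose and CDH5 fell, none of which passed without any 1 of the parental libraries (highest adjusted p = 0.0771, 0.0619 and 0.0915). Of 5 thymic epithelial markers, FOXN1, a transcription factor also of hair and skin epithelium, was at 1.01 to 1.38 CPM against 18.7, 18.2 and 3.11 CPM, and did not pass without any 1 of the parental libraries (highest adjusted p = 0.057). It was lowest in R075, the line titled as thymus, and PSMB11 and AIRE were at most 0.143 CPM in every library. In bulk samples, fewer cells of a type and less RNA per cell cannot be told apart. The part of other cells in the results was not tested.

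The falls with the widest gap were led by ANKRD1, an ankyrin repeat protein known as a target of the YAP and TEAD factors. ANKRD1 (chromosome 10, 90912096 to 90921276) was at 54.4, 56.7 and 54.3 CPM in the parental libraries and at 0.533, 0.409 and 0.644 CPM in R069, R072 and R075, a log2 fold change of -6.65 ± 0.23 (SE, adjusted p = 0.000598). The 3 lines were close to each other here. CTGF, another target of the same factors, was at 19.1, 20.7 and 21.4 CPM against 0.433, 0.409 and 3.94 CPM, but did not pass without any 1 of the parental libraries or R069 (highest adjusted p = 0.0654). CYR61, the third well-known target, was at 236 to 238 CPM and at 69.2, 39.5 and 454 CPM, so that R075 lay above the parental libraries and the other lines below (adjusted p = 0.777).

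The other falls with the widest gaps held genes of several functions. CLDN11, a claudin of tight junctions, was at 206, 203 and 204 CPM in the parental libraries and at 10.9, 4.09 and 14.8 CPM in the lines. ALDH1A3, which makes retinoic acid from retinal, was at 694, 683 and 698 CPM against 18.6, 24.2 and 51.3 CPM, a log2 fold change of -4.46 ± 0.45 (adjusted p = 0.00239). In the 3 BPH-1 vector control libraries, on a scale set with all 12 BPH-1 libraries, ALDH1A3 ran from 224 to 226 CPM and CLDN11 from 305 to 314 CPM. SLC7A2, a transporter of cationic amino acids, ADAMTS12, a secreted metalloprotease, TNFSF18, the ligand of GITR, the receptor LRP3, the calcium sensor HPCAL1, the E3 ligase MARCH4 and the hair keratin-associated gene KRTAP2-3 fell by 3.26 to 5.66 on the log2 scale, each passing whichever library was left out. TMEM189-UBE2V1, a readthrough of 2 neighbouring genes whose reads it shares, was at 15.8 to 18.7 CPM against 0, 0 and 1.04 CPM and is uncertain. It did not pass without any 1 of the parental libraries (highest adjusted p = 0.059).

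Genes of lipid synthesis fell in part. Of 31 genes of cholesterol and fatty acid synthesis, all tested, 13 fell and 3 rose, against 16.7% and 20.7% of all genes, with a median of -0.42. Without parental library 1, 2 or 3 the falls were 10 each time, and without R069, R072 or R075 they were 12, 17 and 15. The rises were 3 in all 6 libraries, 1 without any 1 of the parental libraries, 2 without R069, 5 without R072 and 2 without R075.

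The fatty acid branch and its regulators made up the larger changes. SCD, the desaturase that makes oleate, was at 1660.3, 1589.8 and 1656 CPM in the parental libraries and at 167, 165 and 203 CPM in R069, R072 and R075, a log2 fold change of -3.20 ± 0.21 (adjusted p = 0.00174). FASN, fatty acid synthase, was at 1288, 1161 and 1238 CPM against 254, 345 and 174 CPM. SREBF1, the transcription factor that drives this branch, was at 205, 200.3 and 201 CPM against 39.9, 77.4 and 33.5 CPM. ACLY, ELOVL6, FADS1 and FADS2 fell too, and each of these 7 passed whichever library was left out.

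The sterol branch did not follow in full. HMGCS1, an early enzyme of the mevalonate pathway, was at 123, 123 and 125 CPM and at 253, 263 and 267 CPM in the lines, higher by a log2 fold change of 1.07 (adjusted p = 0.0048), while scaling to total counts ended that call. DHCR7, which makes cholesterol in the last step, fell from 283, 265 and 271 CPM to 66.8, 66.2 and 80.3 CPM.

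**Figure D2:**
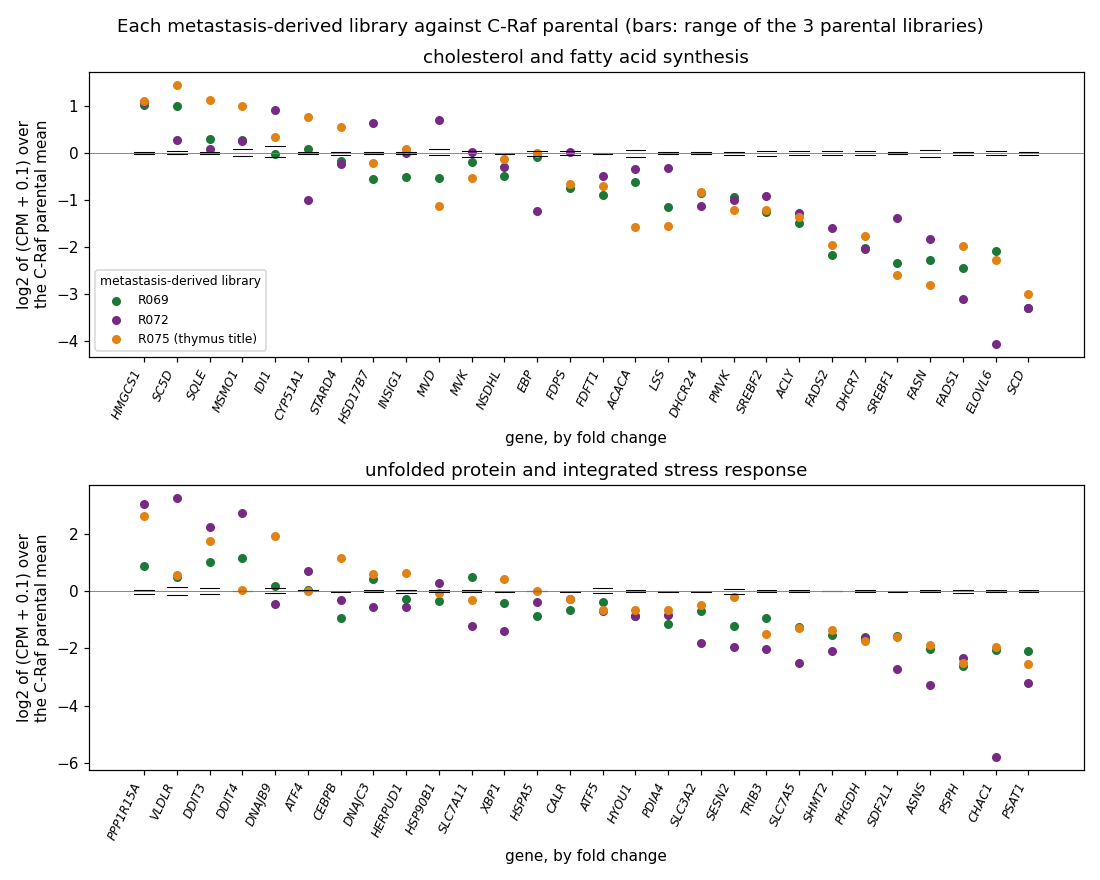
Ratio of each metastasis-derived line to the C-Raf parental mean, as log2 of CPM + 0.1, for 28 of the 31 tested genes of cholesterol and fatty acid synthesis (top) and 28 genes of the unfolded protein and integrated stress response (bottom), with short black bars for the range of the 3 parental libraries. SCD stands at the right of the top panel with the 3 lines close together, all well below the parental range, and HMGCS1 stands at the left with all 3 lines above the parental range.

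Serine synthesis genes, targets of the amino acid branch of the stress response, were lower as well. In the list of 28 unfolded protein and integrated stress response genes, all tested, 12 fell and 2 rose, with a median of -0.49. Among all genes 16.7% fell and 20.7% rose. In fits lacking parental library 1, 2 or 3 the falls were 6, 7 and 7, and without R069, R072 or R075 they were 11, 14 and 14. The rises were 2 over all 6 libraries, 0 without any 1 of the parental libraries, and 2, 4 and 4 without R069, R072 and R075. PSAT1, which makes phosphoserine, was at 178, 174 and 167 CPM in the parental libraries and at 40.8, 18.5 and 29.5 CPM in R069, R072 and R075, a log2 fold change of -2.54 (adjusted p = 0.00313). PHGDH, the first enzyme of serine synthesis, was at 118, 118 and 113 CPM against 38.7, 37.0 and 34.5 CPM. PSPH, the last enzyme, was at 21.2, 22.3 and 22.7 CPM against 3.56, 4.26 and 3.79 CPM. These 3 and ASNS, asparagine synthetase, passed whichever library was left out, and their groups did not overlap.

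Other members of the list went several ways. HSPA5, the main chaperone of the endoplasmic reticulum, was at 903 to 918 CPM and at 499.6, 699.9 and 907 CPM and did not pass (adjusted p = 0.3). The 2 members that rose were DDIT3 and PPP1R15A. PPP1R15A, which recruits a phosphatase to eIF2, was at 95 to 105 CPM against 184, 838 and 615 CPM (adjusted p = 0.0155, up to 0.0705 without 1 parental library). ATF4, the transcription factor that drives many of these genes, was at 245 to 251 CPM and at 251, 401 and 248 CPM (adjusted p = 0.399).

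ERK target genes did not move as a group. Of 20, all tested, 4 fell (CCND1, ETV1, ETV4 and ETV5) and 2 rose (EPHA4 and KLF10), beside 16.7% of all genes that fell and 20.7% that rose. With parental library 1, 2 or 3 left out the falls were 2 and the rises 1 each time. Without R069, R072 or R075 the falls were 4, 5 and 7 and the rises 3, 5 and 3. CCND1, cyclin D1, was at 872, 862 and 878 CPM in the parental libraries and at 354, 227 and 317 CPM in the lines, a log2 fold change of -1.54 (adjusted p = 0.00526). ETV5, an ETS factor that ERK induces, was at 71.3, 69.7 and 71.5 CPM against 31.8, 19.5 and 34.1 CPM (adjusted p = 0.00864). EPHA4, an ephrin receptor, was at 0.245 to 0.458 CPM against 8.62, 24.1 and 7.08 CPM. CCND1, ETV5 and EPHA4 passed whichever library was left out. DUSP6, the phosphatase of ERK that reads out its activity, was at 598, 611 and 603 CPM and at 260.2, 233 and 1189 CPM, below the parental libraries in R069 and R072 and above them in R075 (adjusted p = 0.907).

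The 3 lines also differed among themselves. Among genes with a mean of at least 20 CPM in the lines, R072 stood at least 2 log2 units above both other lines for 180 and below them for 29, R075 for 70 and 23, and R069 for 2 and 4. R072 had a TMM factor of 0.595, beside 1.07 in R069 and 1.01 in R075, and a lower factor gives higher CPM. R072 also had the lowest protein-coding share of the lines. The part of scaling and composition in these differences was not tested. Of the 8 genes with a mean of at least 20 CPM in the lines whose single library stood farthest from the other 2, 6 were highest in R075: CXCL1, CXCL2, CXCL3, PTGS2, HAS2 and NEDD9. PTGS2, cyclooxygenase-2, was at 71.8, 71.7 and 74.5 CPM in the parental libraries and at 15.5, 11.1 and 606 CPM in R069, R072 and R075. CXCL1, a neutrophil chemokine, was at 27.3, 28.5 and 25.8 CPM against 3.83, 6.8 and 229 CPM. HAS2, hyaluronan synthase, was at 66.0, 66.7 and 66.1 CPM against 3.83, 4.42 and 219 CPM. R069 and R072 lay below the parental libraries and R075 above, and none of these 3 passed (adjusted p = 0.426, 0.416 and 0.924). The other 2 of the 8 were MUC5B, a secreted mucin, low in R075 at 0.751 CPM beside 58.2 and 66.8 CPM in R069 and R072, and the protease TMPRSS11B, at 111 CPM in R072 beside 1.3 and 3.29 CPM. Both rose, and neither passed without any 1 of the parental libraries (highest adjusted p = 0.0602 for MUC5B and 0.101 for TMPRSS11B).

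Inflammatory cytokines showed this split in most members. Of 25 listed genes 20 were tested, and 2 rose, IL1RN and NFKBIA, beside 20.7% of all genes. R075 was the highest line for 19 of the 20. In R069 18 members, and in R072 17, lay below all 3 parental libraries, against 4 in R075, and 15 members in R075 lay above them. Such shares over all genes tested were not counted, and the parental libraries hardly varied. The calls moved with the library left out. Without R075 13 members fell and 2 rose, and 1 fell without R072, whereas over all 6 libraries 0 fell. In the fit without R075, 6843 of 13683 genes passed, 54.5% of them higher. Without any 1 of the parental libraries 1 member rose. IL1B, interleukin 1 beta, was at 288, 284 and 279.6 CPM in the parental libraries and at 15.7, 12.8 and 121 CPM in R069, R072 and R075 (adjusted p = 0.0687). IL1RN, the natural antagonist of interleukin 1, was at 5.00, 4.53 and 4.25 CPM against 46.5, 144 and 80.4 CPM, a log2 fold change of 4.29 (adjusted p = 0.00252), and passed whichever library was left out.

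Immediate early genes, which respond within minutes to growth factors or stress, were higher in R075 too. Of 19, all tested, 6 rose (EGR3, IER5, JUNB, KLF4, KLF6 and ZFP36) and 0 fell, beside 20.7% and 16.7% of all genes. The list's median was 2.07. When parental library 1, 2 or 3 was dropped the rises were 0, 1 and 0, without R069 12, without R072 10 and without R075 6, with 2 falls in the last of these. R075 was above all parental libraries for 18 of the 19, R072 for 15 and R069 for 11. The parental libraries hardly varied, and the same share over all genes tested was not counted. ATF3, a stress-induced partner of AP-1, was at 12.8, 12.4 and 10.6 CPM in the parental libraries and at 7.59, 17.2 and 361 CPM in R069, R072 and R075. FOSB was at 49.6 to 52.6 CPM against 53.8, 70.3 and 1214 CPM. KLF4, a factor of epithelial differentiation, was at 21.3, 18.7 and 19.4 CPM against 44.1, 147 and 165 CPM (adjusted p = 0.00971, up to 0.0517 without 1 parental library).

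**Figure D3:**
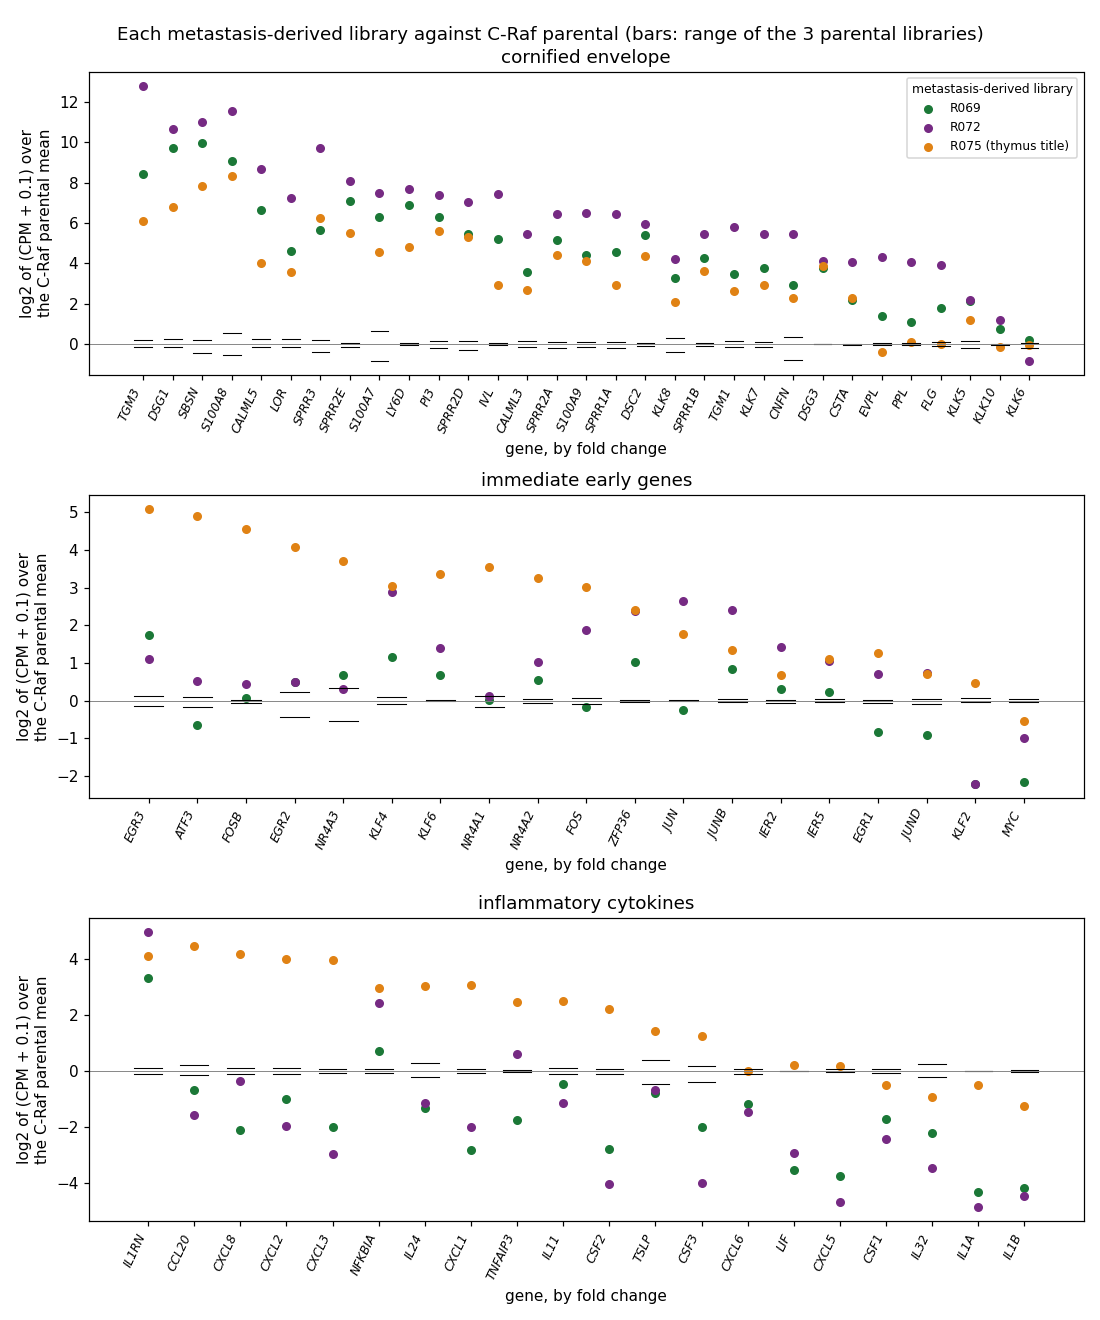
Ratio of each metastasis-derived line to the C-Raf parental mean, as log2 of CPM + 0.1, for the tested members of the cornified envelope (top), immediate early (middle) and inflammatory cytokine (bottom) lists, with short black bars for the range of the 3 parental libraries. R072 is the highest line for 30 of 31 cornified envelope genes, and R075 for 15 of 19 immediate early genes and 19 of 20 cytokine genes.

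Interferon-stimulated genes rose in part. Of 30 listed 28 were tested, 14 rose and 0 fell, beside 20.7% and 16.7% of all genes, with a median of 1.01. In fits lacking parental library 1, 2 or 3 the rises were 8, 9 and 9, and without R069, R072 or R075 they were 14, 15 and 14, with 2 falls without R072 and 3 without R075. IFI27 was at 0.793, 0.857 and 0.945 CPM in the parental libraries and at 10.4, 23.6 and 37.2 CPM in R069, R072 and R075. IFI6 was at 9.95, 10.0 and 10.5 CPM against 48.5, 51.5 and 95.4 CPM. RSAD2, viperin, was at 0.061 to 0.135 CPM against 4.36, 10.2 and 3.69 CPM. All 3 passed whichever library was left out. In the vector control libraries, on the scale set with all 12 BPH-1 libraries, IFI27 ran from 7.32 to 7.90 CPM and RSAD2 from 0.829 to 1.04 CPM. Both ranges lay above the C-Raf parental values and below the lines. ISG15, at 14.9 to 17.1 CPM and 14, 10.1 and 23.0 CPM, did not pass (adjusted p = 0.965).

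Of 26 matrix proteases and inhibitors tested, 6 rose and 3 fell (MMP15, TIMP2 and PLAT), beside 20.7% of all genes that rose and 16.7% that fell. With parental library 1, 2 or 3 left out the rises were 1, 2 and 1, without R069 4, without R072 11 and without R075 5, and the falls were 3 each time except 5 without R072 and 10 without R075. The collagenase MMP13 was at 1.99 to 2.51 CPM against 26.8, 9.58 and 76.7 CPM, a log2 fold change of 4.12 that did not pass without parental library 1 or 3 (highest adjusted p = 0.0516). TIMP2, an inhibitor of these enzymes, was at 107, 102 and 107 CPM against 18.8, 10.2 and 25.7 CPM, and MMP15, a membrane-bound member, at 24.2 to 25.7 CPM against 2.76, 3.11 and 2.65 CPM, both whichever library was left out.

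Of 20 mesenchymal genes tested 6 rose and 3 fell, beside 20.7% and 16.7% of all genes. There were 10 rises without R072 and 5 falls without R075. ZEB2, a repressor of epithelial cadherin, was at 0.061 to 0.153 CPM in the parental libraries and at 3.33, 7.29 and 25 CPM in R069, R072 and R075, and VIM, vimentin, at 0.061 to 0.203 CPM against 4.49, 5.4 and 23.0 CPM. TNC, the matrix protein tenascin C, was at 84.3 to 92.1 CPM against 1008, 444 and 1470.0 CPM. Each passed whichever library was left out, and the receptor AXL fell from 288 to 304 CPM to 69.4, 71.6 and 128 CPM. The epithelial cadherin CDH1 was at 313 to 316 CPM and at 297, 452 and 471 CPM and did not pass (adjusted p = 0.247). Of 21 junction genes 6 rose and 2 fell, again beside 20.7% and 16.7% of all genes. DSP, the desmosomal plakin desmoplakin, was at 234 to 248.8 CPM against 2919, 13511 and 1576 CPM (adjusted p = 0.00994, up to 0.0543 without 1 parental library). When parental library 1, 2 or 3 was dropped, 1 junction gene rose and 1 fell each time, and without R072 or R075 6 and 5 fell.

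Of 25 integrins and laminins tested 4 rose and 4 fell, close to the 20.7% and 16.7% of all genes, and there was 1 of each without any 1 of the parental libraries. Without R069, R072 and R075 there were 6, 8 and 5 rises and 3, 8 and 9 falls. ITGB8, a subunit of an integrin that activates latent TGF-β, was at 19.0 to 19.4 CPM against 148, 80.8 and 266 CPM and passed throughout. In the TGF-β list 7 of 20 rose and 2 fell, beside 20.7% and 16.7% of all genes. With parental library 1, 2 or 3 left out the rises were 5, 4 and 4 and the falls 1. Without R069, R072 and R075 the rises were 6, 9 and 8 and the falls 1, 3 and 3. The inhibitory factors SMAD7, from 6.01 to 7.02 CPM up to 25.3, 28.4 and 37.9 CPM, and SKIL, from 30.7 to 32.8 CPM up to 130.0, 179 and 191 CPM, passed whichever library was left out.

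Of 15 tested genes linked to bone metastasis, 4 rose (BMP2, BMP6, HEY1 and JAG1) and 2 fell (NOG and CTGF), beside 20.7% and 16.7% of all genes. In fits lacking parental library 1, 2 or 3, 1 rose and 0 fell each time, without R069 5 and 0, without R072 4 and 2, and without R075 5 and 8. The notch ligand JAG1 was at 212 to 222 CPM against 505, 649 and 1467 CPM (adjusted p = 0.0139, up to 0.069 without 1 parental library). PTHLH, the parathyroid hormone-related peptide, was at 179 to 181 CPM against 209.8, 306 and 499.6 CPM and did not pass (adjusted p = 0.0714). DKK1, a secreted Wnt antagonist, was at 292 to 299 CPM against 18.3, 10.6 and 284 CPM (adjusted p = 0.344). TNFSF11, SPP1, CXCR4, CXCL12 and VCAM1 were too low to be tested.

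Proliferation genes fell in part. Of 30 genes of S and G2/M phase, all tested, 10 fell and 2 rose (CCNE2 and CENPF), with a median of -0.50. Among all genes 16.7% fell and 20.7% rose. The rises were 1 without any 1 of the parental libraries. With parental library 1, 2 or 3 left out the falls were 2, 2 and 3, without R069 9, without R072 18 and without R075 11. CDC20, an activator of the anaphase-promoting complex, was at 279, 284 and 278 CPM in the parental libraries and at 90.7, 37.7 and 94.7 CPM in R069, R072 and R075, and AURKA, a spindle kinase, at 155 to 162 CPM against 75, 45.3 and 66.7 CPM, both whichever library was left out. MKI67 did not go with them, at 524 to 547 CPM and 1093, 4049.9 and 648 CPM (adjusted p = 0.0745). Of 17 G1 inhibitors and p53 targets 7 rose and 2 fell, beside 20.7% and 16.7% of all genes. MDM2, an E3 ligase, rose from 117 to 128 CPM up to 384, 410.1 and 409 CPM. CDKN2B, an inhibitor of CDK4, rose from 18.3 to 18.9 CPM up to 41.0, 68.0 and 106 CPM. Without any 1 of the parental libraries 4 of the 17 rose and 0 fell.

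The next lists are recorded because the groups differed in RNA composition, as given above. All 13 mitochondrially encoded genes of oxidative phosphorylation rose, with a median of 3.81. Of 74 nuclear ones 23 fell and 2 rose, beside 16.7% and 20.7% of all genes, with a median of -0.48. When parental library 1, 2 or 3 was dropped the mitochondrial rises were 1, 2 and 2 and the nuclear falls 8, 7 and 10, and without R069, R072 or R075 the nuclear falls were 17, 40 and 34. Of 81 cytosolic ribosomal protein genes 15 fell and 0 rose, beside 16.7% and 20.7% of all genes, with a median of -0.52. The ribosomal falls were 0 without parental library 1, 2 or 3. Without R069, R072 or R075 they were 3, 34 and 48. In these 3 fits 3912, 8268 and 6843 of all genes tested passed. Median exon length was 784 bases for the mitochondrial, 2545 for the nuclear and 3109 for the ribosomal protein genes, 1653 for the cornified envelope and 5217 for lipid synthesis, beside 5086 for all genes tested. The part of length and composition in these changes was not tested.

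**Figure D4:**
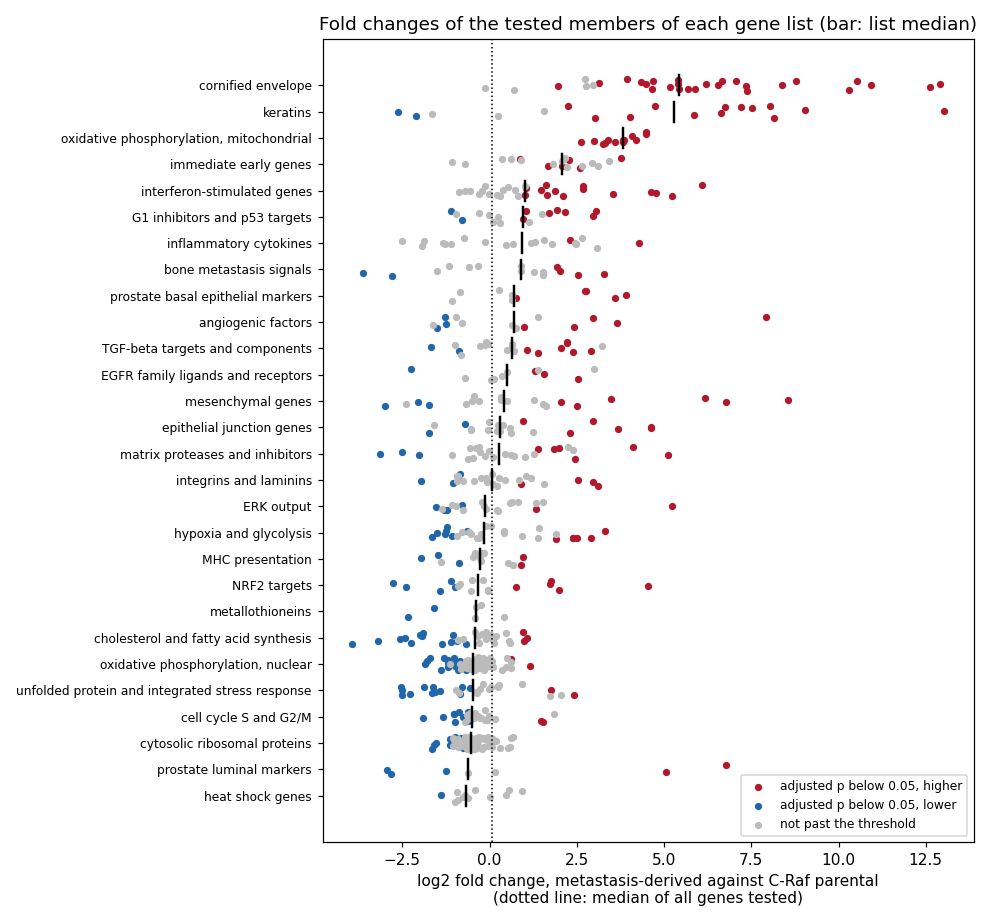
Log2 fold change of every tested member of 28 gene lists, red where it rose and blue where it fell at an adjusted p of 0.05, grey otherwise, with a black bar for the list median and a dotted line for the median of all genes, 0.07. The cornified envelope (median 5.43) and keratins (5.29) stand at the top, followed by mitochondrial oxidative phosphorylation (3.81), and ribosomal protein genes (-0.52) near the bottom.

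In hypoxia and glycolysis 6 of 28 genes rose and 7 fell, beside 20.7% and 16.7% of all genes. With parental library 1, 2 or 3 left out the rises and falls were 1 and 3. Without R072 they were 10 and 17. ALDOA, a glycolytic aldolase, fell from 1581 to 1681 CPM to 581, 716 and 721 CPM and NDRG1, a stress-induced gene, rose from 119 to 122 CPM to 628, 1940.3 and 1010.1 CPM, both whichever library was left out. Of 18 NRF2 targets 5 rose and 5 fell, beside 20.7% and 16.7% of all genes. These were 2 and 2 without any 1 of the parental libraries, and the falls were 3 without R069 and 8 without R072. NQO1, a quinone reductase, was at 74.9 to 77.8 CPM against 20.8, 10.6 and 12.3 CPM. AKR1B10, an aldo-keto reductase, was at 0.704 to 0.793 CPM against 17.0, 26.6 and 9.27 CPM. FTL, the ferritin light chain, fell from 545 to 571 CPM to 78.7, 58.3 and 108 CPM.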

How the data were processed

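RNA sequencing of BPH-1 libraries was analysed from the deposited RSEM expected counts, which the authors made from reads trimmed with cutadapt and aligned with STAR to hg38, per the submitters' processing notes. Versions of these tools and of the gene annotation are not given in the sources used here. Of 60448 gene symbols in the tables, 36628 matched GENCODE v29 and 921 matched through an older symbol. The 19235 protein-coding symbols were kept and 71 symbols of the histone clusters were left out. Expected counts were rounded, genes were filtered with filterByExpr, and 13403 were tested in the 3 metastasis-derived against the 3 C-Raf parental libraries with TMM factors and edgeR's quasi-likelihood F test (edgeR 4.0.16, R 4.3.3), with Benjamini-Hochberg adjustment over all of them. The standard error is the log2 fold change divided by the square root of F. The script was tested on simulated data.

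The members and gene lists were chosen with earlier results of these data known. Named genes were the 12 higher and 12 lower large changes with the widest gap between groups and a mean of at least 10 CPM, up to 4 called and 2 not called members of each list, and the 8 genes at 20 CPM or more whose single metastasis-derived library stood farthest from the other two. Groups came from the titles and treatment labels. Alternatives were other scalings and filters, DESeq2 1.42.0, limma 3.58.1 with voom, a test against a minimum change, other sets of libraries, a gene length offset and leaving out each library in turn. The level of the transgene and the values of some list members are not reported here.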

Additional observations from a re-analysis of the deposited data

Results flagged for a closer look

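The 3 metastasis-derived libraries left out of the comparison held reads of the 12 genes with the widest rises. Pooled over the 3 libraries, KRTDAP was at 123 CPM, S100A8 at 1060 CPM, KRT1 at 30.1 CPM and SBSN at 158 CPM. CERS3 was at 15.8 CPM, TMPRSS11D at 35.9 CPM, DSG1 at 27.3 CPM and KRT6B at 197 CPM. LRRTM2 was at 8.61 CPM, MAF at 148 CPM, TGM3 at 40.2 CPM and KRT6C at 4.31 CPM. For each of the 12, the lower end of the exact Poisson interval of the pooled value lay above the highest parental library, and these intervals cover counting error only. The 3 libraries held 696543 counts in the tested genes together, and RN7SL1 took 93.3% to 97.5% of their counts. Bone R071 alone held 465030 protein-coding counts, beside 132487 and 111188 in the others. Pooled values were scaled to total counts without TMM factors, and did not always follow the deep lines. MAF lay above all 3 lines, and KRT1 and KRT6C below them. Outside the 12, ZEB2 was at 706 CPM pooled beside 3.33 to 25 CPM in the lines, and KRT8 at 4.31 CPM beside 79.7 to 182 CPM. The rises were not tested in these libraries alone.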

How the results depend on the processing

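There were 5004 genes changed between metastasis-derived and C-Raf parental libraries, 1163 large changes higher in metastasis-derived libraries (large rises) and 322 large changes lower in metastasis-derived libraries (large falls). These counts moved by over 1.5 times under the following settings. Scaling to total counts gave 559 large falls. A minimum of 10 counts in every library, which removes genes near 0 in either group, gave 687 large rises and 171 large falls. All genes of the tables gave 2116 and 509. Voom with sample weights gave 9395 changed genes and 485 large falls, a test against a log2 change of 1 gave 1352 changed genes, and all 6 metastasis-derived libraries gave 2017 changed genes and 537 large falls. For these shifts the cause was not tested. Leaving out 1 library gave 1843 to 8268 changed genes, 692 to 1574 large rises and 237 to 526 large falls. Leaving out mitochondrial genes, chosen after seeing the data, gave 5025, 1181 and 318.

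Of 190 named genes 124 passed, and 0 of these turned in direction under any of the 14 alternatives or 6 fits without 1 library. The call was lost for 51 of them in at least 1 of those 6 fits and for 53 under another alternative. The 53 leave out calls lost because an alternative's filter removed the gene before testing. A minimum of 10 counts in every library removed all of the widest rises except S100A8 and KRT6B, and falls such as ANKRD1. The text also names list members outside these 190. Of all 286 called list members 1 turned, KRT5, from 0.75 to -0.06 on the log2 scale with all 6 metastasis-derived libraries. Of the 24 genes with the widest gaps, 22 passed in all 6. No paired analysis was possible because the compared groups share no replicate numbers that come from their labels. Depth limits the genes with 0 to 2 parental counts, whose folds are given as bounds or with counting intervals.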
